A study of Mus musculus with 22 samples.

Results

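Histone H3.3 was compared along the genome between testes of mice heterozygous for 1 Robertsonian translocation (1Rb) and testes of control mice (Cg). The comparison takes the libraries titled 1Rb_1 to 1Rb_3 and Cg_1 to Cg_3, immunoprecipitated for H3.3, together with the unprecipitated DNA (input) titled 1Rb_M and Cg. These are 8 of the 22 samples of the study, which also profiled γH2AX, a mark of DNA breaks and of unpaired chromosomes that was not used here. The 1Rb mice were the F1 offspring of CBy.RBF-Rb(8.12)5Bnr/J and B6.SPRET7MOLF12, so they carried 1 copy of a chromosome in which 8 and 12 are fused at their centromeres. Cg mice were B6.SPRET7MOLF12 and are labelled as the control. Both groups were 6 weeks old and were treated with the same Millipore H3.3 antibody. The groups therefore differ in parental strains as well as in the translocation, and strain and translocation cannot be told apart from the group labels. The input titled 1Rb_M was taken at 4 weeks, and its strain label is an F1 of C57BL/6J with CBy.RBF-Rb(8.12)5Bnr/J. The Cg input was taken at 6 weeks, and a C57BL/6J input (B6, 4 weeks) was set beside both. A further cross, 3Rb, F1 of B6.SPRET7MOLF12 and RBF/Dnj with 3 translocations at 6 weeks, shared the Cg libraries as its control, so its values are given only side by side. The labels do not say that each library came from another animal, so p-values measure the spread between these libraries.

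H3.3 is a histone H3 variant that is placed on DNA outside S phase by the HIRA complex, at active genes, and by ATRX with DAXX, at repeats and around centromeres. In male meiosis it is known to be loaded on the X and Y chromosomes when they are silenced in the sex body, and on autosomal stretches that fail to pair. In a carrier of a Robertsonian fusion the fused chromosome pairs in meiosis with 2 separate partners, and the ends near the centromere are where pairing is known to be late or incomplete. Mouse chromosomes carry the centromere at one end, so distance along a chromosome is distance from the centromere. The first 3 Mb are not in the assembly.

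The files hold counts per 50 kb window, and totals ran from 41278440 to 128348440 counts over the 6 H3.3 libraries. The inputs held 51651953 (1Rb_M) and 44759882 counts (Cg). For a window of median count the counting error lay between 2.22 and 3.92% over the H3.3 libraries. Replicate 1 of each group stood apart. The chi-square per degree of freedom between libraries over windows was 5.61 and 5.85 for pairs with 1Rb_1 and 1.61 between 1Rb_2 and 1Rb_3, and it was 7.57 and 5.48 for pairs with Cg_1 and 1.48 between Cg_2 and Cg_3. Cg_1 was also the deepest library, with 128348440 counts against 43135904 in Cg_2 and 41278440 in Cg_3, and this chi-square rises with depth. The 1Rb libraries held 44551818, 43811589 and 64997400 counts, so 1Rb_1 was not the deepest of its group. Libraries 1Rb_1 and Cg_1 deviated in opposite ways. Relative to the mean of the 6 libraries on the other 17 autosomes, 1Rb_1 lay at a median log2 of 0.04 and Cg_1 at −0.03 in windows without a gene. In windows with 3 or more genes 1Rb_1 lay at −0.07, on the side of Cg_2 (−0.06) and Cg_3 (−0.04), and Cg_1 lay at 0.05, on the side of 1Rb_2 (0.05) and 1Rb_3 (0.06). The main autosomal results that rest on these 2 libraries are given with and without them. For X and Y single libraries were left out, and the fit without both is given as a joint count. Whole testis holds many cell types, so fewer cells carrying the mark and less mark per cell cannot be told apart. The files measure DNA and not RNA, so the tissue label could not be checked against marker genes.

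Over the whole genome 3.71% of windows passed the test, and 2.08% of autosomal windows did. Of 48017 autosomal windows tested, 479 were higher and 521 lower in 1Rb than in Cg (edgeR quasi-likelihood test, adjusted p under 0.05), a share of 0.998% and 1.09%. Of the 479 higher windows, 150 lay within 3 to 13 Mb of the 2 joined chromosomes, and 0 of the lower ones did. On chromosome 8, 94 of the 200 windows of this stretch were higher. On chromosome 12, 56 of 200 were. On the other 17 autosomes together the same stretch held 34 higher and 35 lower windows of 3391. The median log2 difference was 0.16 on 8 and 0.11 on 12, against 0.015 on the other 17. The inputs were close to each other here: the median log2 ratio of the 1Rb_M to the Cg input was 0.012 on 8, 0.0098 on 12 and 0.012 on the other 17. Of the 150 higher windows, 149 had inputs within 1.2-fold of each other, with a median input log2 ratio of −0.0026 over the 150. Without 1Rb_1 and Cg_1 the counts were 96 higher and 0 lower on 8, 73 higher and 3 lower on 12, and 176 higher and 94 lower on the other 17, while autosomal windows higher in 1Rb went up to 7.81% and lower ones to 3.36%. Without Cg_1 alone, 1013 autosomal windows were higher and 747 lower, with 93 of the higher ones in the stretch on 8 and 63 in that on 12.

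Summed over the 3 to 13 Mb band, chromosome 8 held 3633, 3636 and 3661 CPM (counts scaled to the library size with edgeR's TMM factors) in the 1Rb libraries. The Cg libraries held 3331, 3255 and 3260 CPM there. All 3 carriers were above all 3 controls, and the log2 difference was 0.15 ± 0.01 (SE, edgeR adjusted p over 95 bands 6.9e-05). The input log2 ratio of this band was 0.017 (95% interval 0.0069 to 0.026, counting error only). Of the 95 bands of distance on the 19 autosomes, 2 passed (2.11%), and the other was the last 5 Mb of 12, described with the inputs below. The same band of chromosome 12 held 5037, 4644 and 4719 CPM in 1Rb and 4329, 4651 and 4515 in Cg. These groups overlapped, and the log2 difference of 0.09 ± 0.03 did not pass (adjusted p = 0.316). Without 1Rb_1 and Cg_1 it was 0.03. A single window at 3.1 Mb with an input over 5 times the median fell in this band. Without such windows the band differed by 0.12 with an adjusted p of 2.5e-05. Further from the centromere, the 13 to 23 Mb bands of 8 and 12 differed by 0.05 each (adjusted p = 0.207 and 0.278), and the 23 to 33 Mb bands by −0.0068 and −0.03 (adjusted p = 0.763 and 0.488).

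A single value per library was also taken: the log2 of counts in 3 to 13 Mb of 8 and 12 over those in the same stretch of the other 17 autosomes. It was −3.46, −3.36 and −3.36 in 1Rb and −3.45, −3.56 and −3.52 in Cg, so 1Rb_1 fell just below Cg_1. The difference was 0.12 (two-sided exact permutation test, p = 0.2, with 0.1 the smallest p that 3 against 3 can give), and the inputs differed by 0.03. Without windows of unusual input the 3 1Rb values were −2.95, −2.95 and −2.94 and the 3 Cg values −3.06, −3.08 and −3.08. The groups then did not overlap, and the difference was 0.13 (exact permutation p = 0.1), while the inputs differed by −0.0049. In 3Rb, which shares the Cg controls, the difference from Cg was 0.07 with the same windows.

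**Figure D1:**
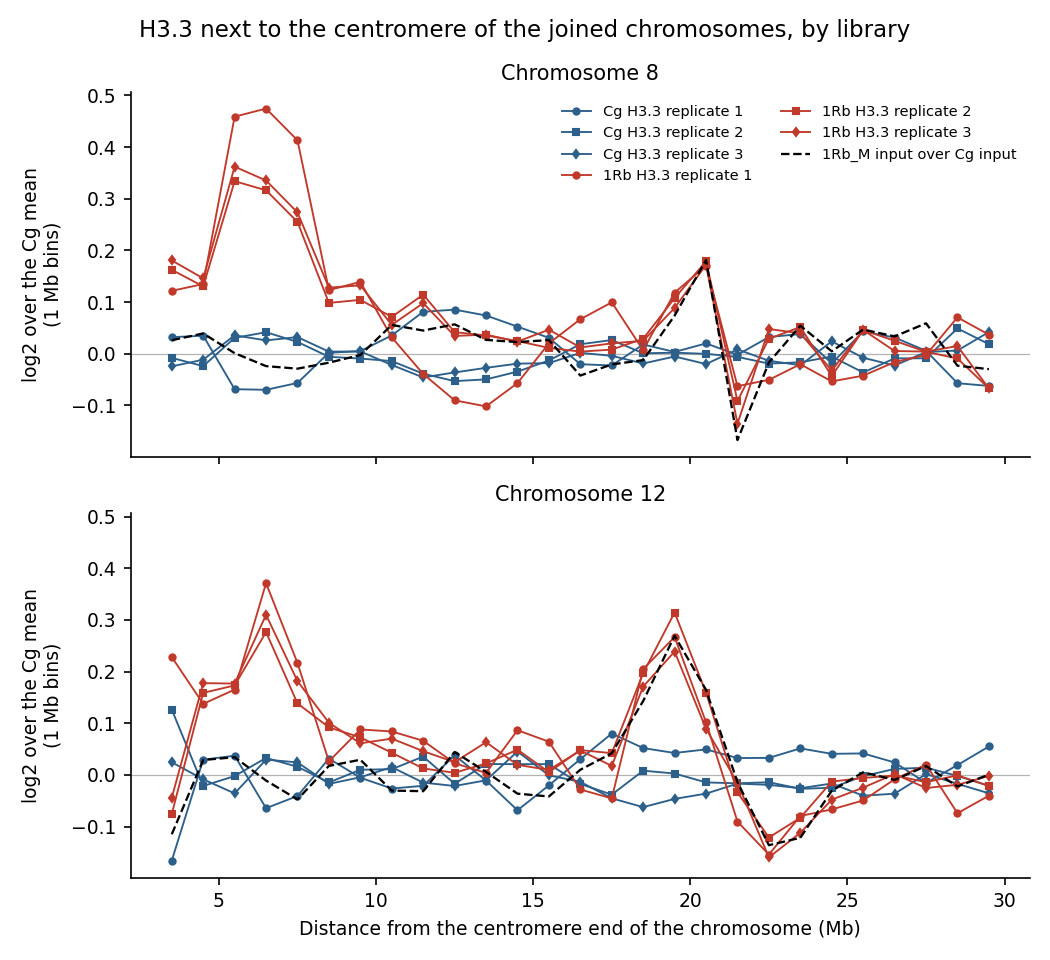
H3.3 in 1 Mb bins over the first 30 Mb of chromosomes 8 and 12, as the log2 of each library over the mean of the 3 Cg libraries (red, 1Rb; blue, Cg), with the log2 ratio of the 1Rb_M to the Cg input as a dashed line. The red lines leave the blue ones from 3 to 10 Mb on 8 and from 4 to 8 Mb on 12 while the dashed line stays near 0, whereas at 20 to 21 Mb of 8 and 18 to 21 Mb of 12 the dashed line moves with the red ones.

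Within the stretch the gain had a peak a few megabases from the end of the assembly. From 3 to 10 Mb of chromosome 8 every 1 Mb bin had all 3 1Rb libraries above all 3 Cg libraries, a run of 7 bins. Over all 2414 autosomal bins this order was seen in 138 (5.72%), and the longest run on any of the other 17 autosomes was 3 Mb. The bin from 5 to 6 Mb held 317, 291 and 297 CPM in 1Rb and 220, 236 and 237 in Cg, so 1Rb_1 and Cg_1 were the furthest apart. The log2 difference was 0.39, and the input log2 ratio was 0.001 (95% interval −0.031 to 0.033). The next bins differed by 0.38 and 0.32, and their inputs by −0.024 and −0.029. All 60 windows from 5 to 8 Mb were higher in 1Rb, with log2 differences of 0.24 to 0.56, and 51 of 60 were without 1Rb_1 and Cg_1. From 8 to 10 Mb 11 of 40 windows were higher, and from 10 to 13 Mb 1 of 60 was.

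On chromosome 12 the run of bins with separate groups went from 4 to 8 Mb. Its highest bin, at 6 to 7 Mb, held 291, 272 and 279 CPM in 1Rb and 215, 230 and 229 in Cg, with a log2 difference of 0.32 and an input log2 ratio of −0.011 (95% interval −0.043 to 0.021). Here 19 of 20 windows were higher. From 4 to 8 Mb 49 of 80 windows were higher, and from 8 to 13 Mb 5 of 100 were. 3Rb differed from the shared Cg libraries by 0.27, 0.26 and 0.23 in the 3 highest bins of 8 and by 0.25 in the highest bin of 12.

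The highest windows held no protein-coding gene. They were picked after their values were seen. The window of chromosome 8 from 5650001 to 5700000 (mm10) held 16.4, 15.8 and 15.96 CPM in 1Rb and 10.3, 11.1 and 11.8 in Cg. The 3 carriers did not overlap with the controls, and the log2 difference was 0.56 ± 0.05 (edgeR adjusted p = 1.2e-09) with an input log2 ratio of 0.05 (95% interval −0.09 to 0.20). On chromosome 12 the window from 6900001 to 6950000 held 14.7, 13.7 and 15.7 CPM against 9.52, 11.2 and 10.9. Its log2 difference was 0.52 ± 0.06 and its input log2 ratio −0.02. With higher windows merged where they were next to each other or 1 window apart, the longest region on any chromosome went from 4700001 to 8150000 on 8, with 67 higher windows of median 0.37. On 12 a region with 32 higher windows from 5900001 to 7550000 overlapped no gene and had a median of 0.32.

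Of the 111 protein-coding genes within 3 to 13 Mb of 8 and 12, 23 overlapped at least 1 window that was higher and 0 one that was lower, against 1.25% of all autosomal genes with a higher window. The genes named in the next sentences were chosen after their values were seen. On chromosome 8 the 3 windows of Insr, the insulin receptor gene, differed by 0.24, 0.24 and 0.21. The Cd209 genes encode lectin receptors of dendritic cells and macrophages, and lie side by side on this chromosome. All 7 of those measured, Cd209a to Cd209g, overlapped a higher window, and the window shared by Cd209d and Cd209e held 13.5, 13.1 and 13.9 CPM in 1Rb and 10.4, 11.2 and 10.96 in Cg (log2 difference 0.33 ± 0.06, edgeR adjusted p = 0.00010). Both windows of Cers4, a ceramide synthase gene, were higher, by 0.28 and 0.35. Slc10a2, the ileal bile acid transporter, had its 2 windows 0.26 and 0.41 higher, and the upper of these held 15.6, 14.3 and 14.5 CPM against 10.7, 11.6 and 11.5. Fam155a, a long gene at 9.2 to 9.8 Mb, had 2 higher windows of 12. Input log2 ratios ran from −0.05 to 0.09 over the windows of Insr and from 0.0020 to 0.04 over those of Cers4. They ran from −0.07 to −0.03 at Slc10a2 and from −0.15 to 0.17 at Fam155a. The ratio was −0.04 in the window shared by Cd209d and Cd209e and 0.17 in that of Cd209a.

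On chromosome 12, Ncoa1, a coactivator of steroid receptors, had 5 of 6 windows higher, with a top window at 29.6, 30.1 and 31.0 CPM against 24.1, 23.2 and 25.0 (log2 difference 0.33 ± 0.05). The input log2 ratio of this top window was 0.18, in the same direction. The endocytic scaffold gene Itsn2 had 3 of 4 windows higher (0.20 to 0.31 in those 3). Klhl29 had 1 of 7 (0.21), and Apob, the main protein of low-density lipoprotein, had 1 of 2 (0.22). Over all windows of Itsn2, Klhl29 and Apob the input log2 ratios ran from −0.07 to 0.09, −0.08 to 0.20 and −0.03 to 0.08. Genes of the same stretch also failed the test. The 3 windows of Dnmt3a, the de novo DNA methyltransferase, differed by 0.11 to 0.21 with overlapping groups (smallest adjusted p = 0.0599). The window of Pomc differed by 0.15 (adjusted p = 0.250), and the 3 windows of Rab10, a vesicle transport gene, by 0.05 to 0.10.

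The gain was larger where fewer genes lay, but gene number went with position. From 5 to 8 Mb, where the gain peaked, 58 of 60 windows of 8 and 51 of 60 of 12 held no gene. From 8 to 13 Mb of 12, 72 of 100 windows held no gene, and 5 of the 100 were higher. Gene number and distance from the centromere therefore cannot be told apart here. From 3 to 8 Mb of 8 and 12, 109 of 128 windows without a gene were higher (median 0.31), 24 of 63 windows with 1 or 2 genes were (median 0.15), and 0 of 9 windows with 3 or more genes were (median 0.08). The window with Elavl1, an RNA-binding protein gene, and 4 other genes held 35.4, 38.3 and 39.7 CPM in 1Rb and 39.2, 35.8 and 38.5 in Cg, a log2 difference of −0.0016. In autosomal windows outside 3 to 13 Mb of 8 and 12 the medians of these classes were 0.011, 0.0060 and 0.03. The medians moved without 1Rb_1 and Cg_1, both within 3 to 8 Mb and outside the stretch. Without these libraries the 3 classes in 3 to 8 Mb had medians of 0.25, 0.19 and 0.14, with 91, 40 and 4 windows higher. Outside the stretch the medians were then −0.02, 0.017 and 0.10. The part of these 2 libraries in the order was not tested further.

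**Figure D2:**
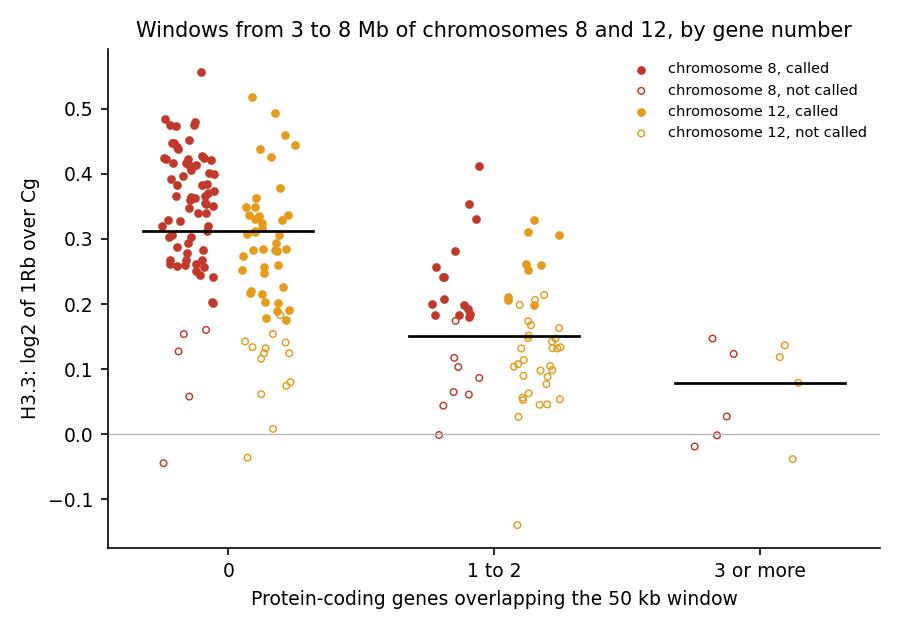
Log2 difference of H3.3 between 1Rb and Cg in each of the 200 windows from 3 to 8 Mb of chromosomes 8 (red) and 12 (orange), by the number of protein-coding genes the window overlaps. Filled points passed the edgeR test, open points did not, and bars are the medians over both chromosomes: 0.31 without a gene, 0.15 with 1 or 2 genes and 0.08 with 3 or more.

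The 250 bases before the gene start are shown for the promoter in the window with the highest and in that with the lowest H3.3 difference within 3 to 13 Mb of each of the joined chromosomes, to set the gene-poor gain beside CpG content (RefSeq, GRCm38.p6, the assembly of mm10; 5′ to 3′ along the gene, CG in capitals, first listed start of each gene). Slc10a2 lies on the minus strand of chromosome 8, at chr8:5105288-5105537, in a window 0.41 higher in 1Rb. Mcf2l, at chr8:12873556-12873805 on the plus strand, lies in a window with a log2 difference of −0.12 that did not pass. Ncoa1, at chr12:4477183-4477432 on the minus strand, lies in a window 0.33 higher. Mycn, at chr12:12941837-12942086 on the minus strand, lies in a window with −0.09 that did not pass. The input log2 ratios of these 4 windows were −0.07, 0.06, 0.18 and 0.09 in this order.
Slc10a2: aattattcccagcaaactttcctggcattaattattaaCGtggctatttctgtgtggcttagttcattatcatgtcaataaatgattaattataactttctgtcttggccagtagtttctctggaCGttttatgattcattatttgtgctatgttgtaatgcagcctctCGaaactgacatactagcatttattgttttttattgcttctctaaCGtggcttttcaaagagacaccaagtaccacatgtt
Mcf2l: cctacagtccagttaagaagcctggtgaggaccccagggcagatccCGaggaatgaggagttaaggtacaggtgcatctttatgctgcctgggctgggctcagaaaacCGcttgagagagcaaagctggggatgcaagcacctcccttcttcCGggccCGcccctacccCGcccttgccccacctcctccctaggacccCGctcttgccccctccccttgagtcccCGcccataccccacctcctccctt
Ncoa1: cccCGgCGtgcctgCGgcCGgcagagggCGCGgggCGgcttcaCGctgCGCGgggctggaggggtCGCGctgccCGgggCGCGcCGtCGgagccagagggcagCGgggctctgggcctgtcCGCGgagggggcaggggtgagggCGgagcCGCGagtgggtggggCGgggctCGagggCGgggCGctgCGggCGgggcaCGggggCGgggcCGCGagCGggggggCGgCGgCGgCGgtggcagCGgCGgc
Mycn: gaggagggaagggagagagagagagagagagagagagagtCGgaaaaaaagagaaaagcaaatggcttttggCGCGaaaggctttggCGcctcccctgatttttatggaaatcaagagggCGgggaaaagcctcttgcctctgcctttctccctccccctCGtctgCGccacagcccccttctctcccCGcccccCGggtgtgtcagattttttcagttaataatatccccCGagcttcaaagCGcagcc
These 4 stretches hold 4, 7, 40 and 11 CG in this order. Of the 27025 genes in the table, 61.9%, 46.5%, 1.3% and 36.0% have as many or more in the 250 bases, and 91.7% have at least 1. The 2 promoters in the highest windows thus lay on either side of the median of 6. Over all promoters in 3 to 13 Mb of 8 and 12, the median was 3 in the 13 whose window was higher and 15 in the 87 whose window was not. The neighbouring genes Cd209a to Cd209g, some of which share a window, were all among the 13 and had 1 to 4 CG each. The median of 3 thus rests largely on this 1 cluster. Cers4 (11), Itsn2 (26) and Ncoa1 (40) were among the 13 as well. A 50 kb window cannot place H3.3 at the promoter itself.

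Summed over whole chromosomes, the joined pair differed little. Chromosome 8 took 4.44, 4.59 and 4.56% of counts in 1Rb and 4.56, 4.40 and 4.42% in Cg, and these overlapped (log2 difference 0.017 ± 0.011, edgeR adjusted p over 21 chromosomes 0.406). Chromosome 12 took 4.06, 4.10 and 4.07% against 4.05, 4.01 and 4.01%. It was the 1 of 21 chromosomes called (4.76%), with a log2 difference of 0.014 ± 0.0025 (adjusted p = 0.013). Its input log2 ratio was 0.012, nearly as large. The call for chromosome 12 did not hold with library totals in place of TMM (0.020, adjusted p = 0.254), without windows whose inputs differed (0.0094, adjusted p = 0.0863) or under 8 other alternatives, among them leaving out 1Rb_2, 1Rb_3 or Cg_3 (adjusted p = 0.333, 0.136 and 0.0785). Chromosome 7 differed by 0.02 ± 0.016 (adjusted p = 0.407) with an input log2 ratio of 0.03. Without 1Rb_1 and Cg_1, 17 chromosomes and 40 bands passed, chromosome 8 among them (0.04, adjusted p = 3.1e-05).

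**Figure D3:**
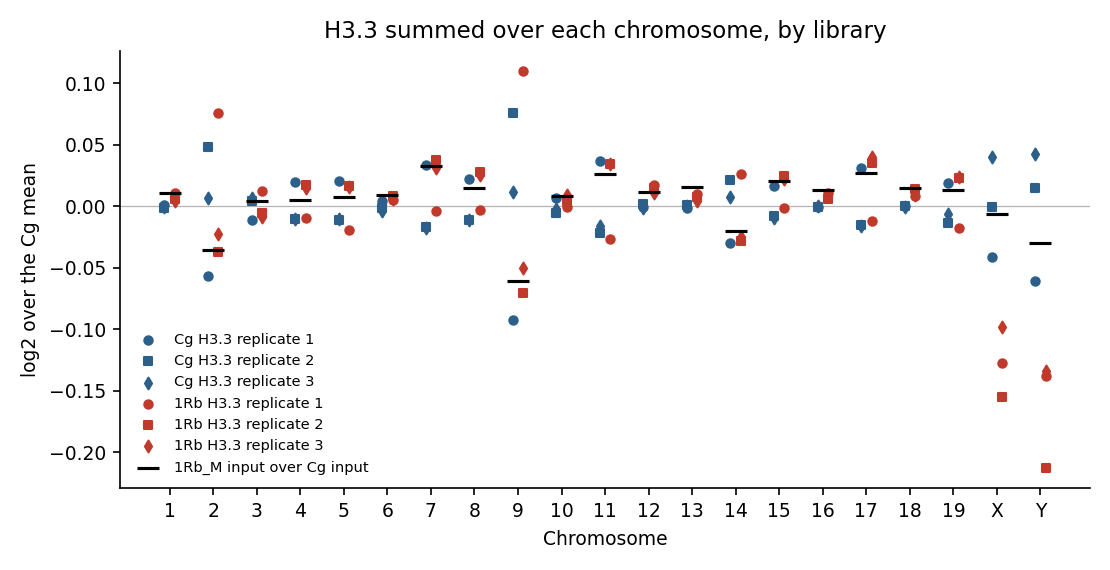
H3.3 summed over the tested windows of each chromosome, as the log2 of each library over the mean of the 3 Cg libraries (red, 1Rb; blue, Cg; the marker shape gives the replicate). Black bars are the log2 ratio of the 1Rb_M to the Cg input. On X and Y all 3 1Rb libraries lie below all 3 Cg libraries while the input bars are at −0.0065 and −0.03.

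Outside 3 to 13 Mb of 8 and 12 the inputs moved with the H3.3 differences. Of the 329 autosomal windows that were higher there, 310 had an input log2 ratio above 0, and 199 had inputs that differed by more than 1.2-fold. Of the 521 lower windows, 476 had a ratio below 0, and 300 were beyond 1.2-fold. Of all 654 windows there with inputs beyond 1.2-fold, 199 were higher and 300 lower in 1Rb, each in the direction of its input. In these the median H3.3 log2 difference was 0.41 beside an input ratio of 0.43 where H3.3 was higher, and −0.37 beside −0.43 where it was lower. Among the 46963 windows with inputs within 1.2-fold, 130 were higher and 221 lower.

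**Figure D4:**
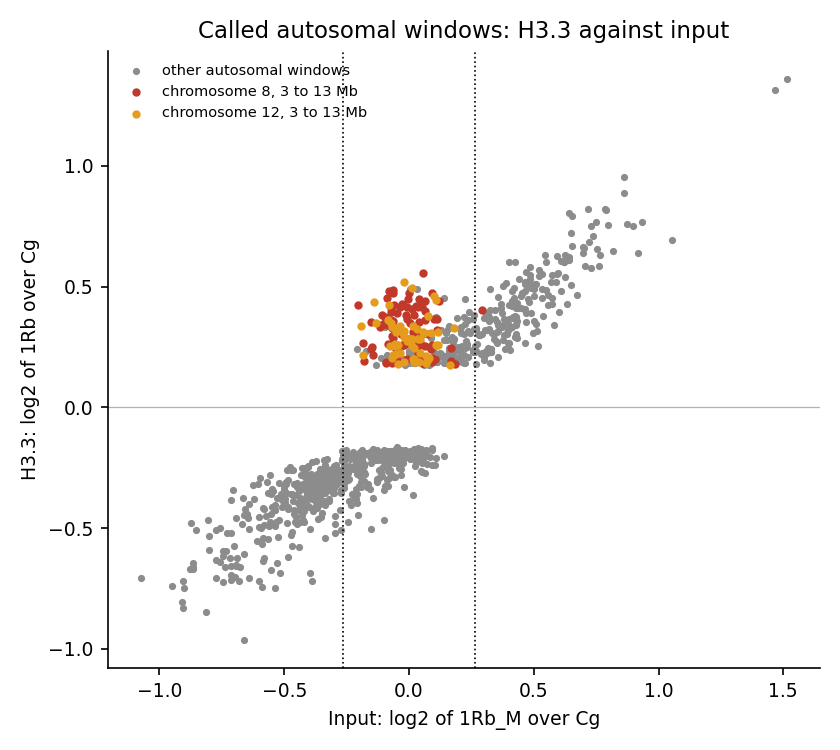
Each of the 1000 autosomal windows that passed the edgeR test, with the log2 ratio of the 1Rb_M to the Cg input on the x axis and the log2 difference of H3.3 between 1Rb and Cg on the y axis. Grey windows run along the diagonal, the coloured windows of 3 to 13 Mb of 8 and 12 stand at an input ratio near 0, and dotted lines mark 1.2-fold.

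The 12 autosomal regions named per direction, those with the smallest adjusted p, at most 3 per chromosome, and with a gene, all had inputs beyond 1.2-fold in the same direction as H3.3. Naip1, an innate immune receptor gene on 13, held 25.3, 26.5 and 24.5 CPM in 1Rb and 16.8, 15.8 and 15.5 in Cg (log2 difference 0.65 ± 0.05), with an input log2 ratio of 0.75. Zfp932, a zinc finger gene on 5, differed by 0.95 with an input ratio of 0.86. 1600014C10Rik on 7 differed by 0.89 (input 0.86) and the vomeronasal receptor gene Vmn2r50 on 7 by 0.82 (input 0.79). Further regions with higher H3.3 were at Alad, an enzyme of heme synthesis on 4 (0.72, input 0.65), at Alyref2 with Itln1 on 1 (0.69, input 1.06), and at Kctd16 on 18 (0.67, input 0.65). Esp34 on 17 (0.63), Btbd9 with Glo1 on 17 (0.61), Vmn2r44 on 7 (0.53), Aida with Brox on 1 (0.52) and 4930449I24Rik with Gm3402 on 5 (0.50) had input ratios of 0.77, 0.61, 0.49, 0.57 and 0.65.

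Lower H3.3 was led by 9230019H11Rik on 10, which held 68.6, 68.7 and 67.5 CPM in 1Rb and 132, 145 and 123 in Cg (log2 difference −0.96 ± 0.07, input −0.66). Nlrp1b, an inflammasome sensor gene on 11, held 8.98, 8.31 and 8.12 CPM against 13.3, 13.9 and 12.6 (−0.65 ± 0.06, input −0.69). Gm6605 on 7 (−0.75), Skint3 on 4 (−0.74), Olfr1431 with Olfr1432, olfactory receptor genes on 19 (−0.72), the zinc finger gene Zfp781 on 10 (−0.72) and Sprr2a1, a cornified envelope gene on 3 (−0.72), had input ratios of −0.54, −0.95, −0.68, −0.60 and −0.71. Gm13030 with Otud3 on 4 (−0.71), Sirpb1c on 3 (−0.54), Gm9595 on 13 (−0.47), Gm8126 with Gm8127 on 14 (−0.45) and Gm6468 on 5 (−0.43) had −0.64, −0.56, −0.56, −0.35 and −0.44. Copies of such gene families are near-identical, so reads cannot be assigned to 1 copy with certainty.

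At the distal end of 12, the last 5 Mb held 1527, 1530 and 1502 CPM in 1Rb and 1423, 1441 and 1445 in Cg (log2 difference 0.08 ± 0.013, edgeR adjusted p = 0.015). The input log2 ratio of the same band was 0.12 (95% interval 0.11 to 0.14). Without windows whose inputs differed the band difference was 0.018 (adjusted p = 0.937), and with the inputs as an offset it was −0.04. The call was lost without Cg_2 (adjusted p = 0.0688), without Cg_3 (0.0564), with the 6 libraries alone (0.103) and with the replicate number as a block (0.15). Rises further along the joined chromosomes also had inputs that moved. At 20 to 21 Mb of 8 the H3.3 log2 difference was 0.17 beside an input ratio of 0.18, and at 19 to 20 Mb of 12 it was 0.27 beside 0.27.

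Gene lists relevant to the tissue held few changed windows. The share over all autosomal windows was also small, at 0.998% higher and 1.09% lower, so lists of this size would hold few calls at that share. Of 44 windows over 21 genes of the H3.3 pathway 0 passed in either direction (edgeR, with 2 at an unadjusted p below 0.05). DESeq2 also called 0. The median was 0.013, against 0.0020 over all windows and 0.0097 over autosomal windows. The H3.3 genes H3f3a and H3f3b differed by 0.0027 and 0.0050, and the chaperone genes Hira and Daxx by medians of −0.0046 and 0.09. Atrx, on X, differed by a median of −0.12 over 4 windows (smallest adjusted p = 0.155). H3f3c (−0.10), Chd1 (0.00072), Chd2 (−0.05), Ubn1 (0.03), Ubn2 (−0.04), Cabin1 (0.03), Asf1a (0.0036), Asf1b (−0.05), Trim28 (0.10), Setdb1 (0.03), Dek (0.0046), Morc3 (0.03), Nasp (0.03), Nsd1 (0.03), Setd2 (0.016) and Zmynd11 (0.016) gave the other medians. Of 38 windows of genes of sex chromosome silencing 0 passed, as did 0 of 49 spermatogonial, 0 of 20 Leydig, 0 of 24 peritubular and blood and 0 of 19 histone cluster windows (edgeR, with 2, 0, 0, 0 and 0 at an unadjusted p below 0.05; DESeq2 also called 0 in each). Of 100 windows of meiotic prophase genes 1 was lower, at Sycp1, a synaptonemal complex gene (−0.19 ± 0.05, adjusted p = 0.041, input −0.18). Of 44 spermatid windows 1 was lower, at Izumo3, a sperm head protein gene. It held 15.0, 14.3 and 14.4 CPM in 1Rb and 16.3, 17.7 and 17.6 in Cg (−0.22 ± 0.05, adjusted p = 0.0058), and its input ratio was −0.03. The share over all windows, X and Y included, was 1.08% higher and 2.62% lower.

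Imprinted genes had 3 higher and 2 lower windows of 132, and the 4 with the smallest p had inputs beyond 1.2-fold. Snrpn, of the Prader-Willi region on 7, had 2 of them: 21.8, 20.7 and 20.5 CPM against 11.9, 12.7 and 12.9 in the first (log2 difference 0.76 ± 0.05, input 0.88), and 0.82 in the second (input 0.72). The other pair lay distally on 7, at Osbpl5 with Tnfrsf23 (−0.47, input −0.46) and at Tnfrsf22 with Tnfrsf26 (−0.39, input −0.32). Vomeronasal receptors had 16 higher and 14 lower of 326 windows, of which 4 and 0 had inputs within 1.2-fold. Vmn2r112 on 17 was among the higher ones (0.48, input 0.41). Olfactory receptors had 4 and 6 of 581, of which 3 and 3 had inputs within 1.2-fold. Their called windows included Olfr412 (0.30, input 0.43) and Olfr1228 (−0.39, input −0.46), both beyond 1.2-fold, and Olfr530 (0.40, input 0.24). Zinc finger genes had 9 and 14 of 566, of which 4 and 7 had inputs within 1.2-fold. Zfp640 (0.52, input 0.59) and Zfp433 (−0.63, input −0.78) were among those called with inputs beyond 1.2-fold. Housekeeping genes had 1 lower of 30, at Pgk1 on X (−0.19).

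On the sex chromosomes H3.3 was lower in the carriers in many windows. X took 5.64, 5.6 and 5.80% of H3.3 counts in 1Rb and 6.04, 6.15 and 6.34% in Cg, against 3.16 and 3.17% of the 1Rb_M and Cg inputs. All 1Rb libraries were below all Cg libraries, but the chromosome sum missed the threshold (log2 difference −0.13 ± 0.04, edgeR adjusted p = 0.0589). It passed with DESeq2 (adjusted p = 0.012) and with the 6 libraries alone (0.033). With single libraries left out the X sum did not pass in any fit (edgeR adjusted p 0.0502 to 0.333). Of 3310 windows of X, 543 were lower and 96 higher. Among the 3033 with inputs within 1.2-fold 400 were lower and 10 higher, with a median of −0.11. In 143 of the 157 bins of 1 Mb with inputs within 1.2-fold all 1Rb libraries lay below all Cg libraries, an order found in 4.81% of autosomal bins. The number of lower windows on X ran from 287 to 1107 when single libraries were left out, highest without Cg_1.

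**Figure D5:**
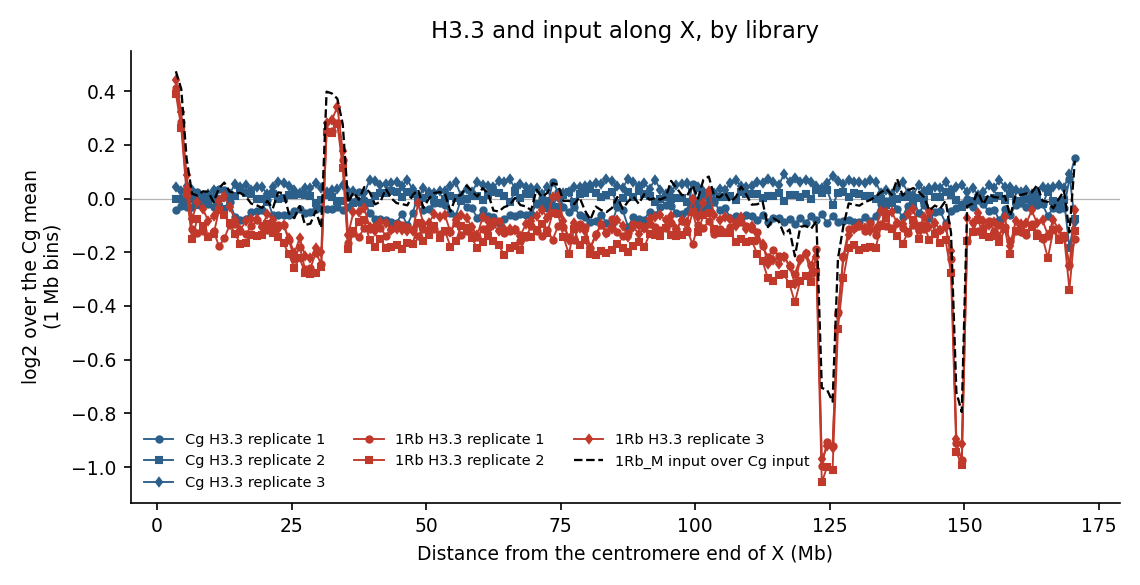
H3.3 in 1 Mb bins along X, as the log2 of each library over the mean of the 3 Cg libraries (red, 1Rb; blue, Cg), with the log2 ratio of the 1Rb_M to the Cg input as a dashed line. The carriers lie below the controls along most of X, and 2 blocks of higher and 2 of lower H3.3 follow the dashed line.

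On X 11 bins had inputs that differed by more than 1.2-fold, and the 1Rb libraries followed them. In 6 bins, at 3 to 5 and 31 to 35 Mb, H3.3 was higher in 1Rb by a median of 0.28, beside an input ratio of 0.39. Both of these blocks hold copies of Btbd35f genes. In 5 bins, at 123 to 126 and 148 to 150 Mb, it was lower by a median of −0.95, beside −0.72. The lower blocks hold Srsx (−1.25, input −1.05), Ott (−1.33, input −0.95), Cldn34c1 (−0.97), Luzp4 (−0.85) and the vomeronasal receptor gene Vmn2r121 (−1.38, input −0.89). Srsx and Ott are multicopy genes expressed in testis. In the same 2 sets of bins the B6 input differed from the Cg input by medians of −0.017 and 0.0020, and the 1Rb_M input from the B6 input by 0.40 and −0.72. The strain label of the 1Rb_M input names C57BL/6J first, where the label of the 1Rb H3.3 libraries names CBy.RBF-Rb(8.12)5Bnr/J first. On these blocks of X the 1Rb_M input thus differed from the C57BL/6J input and followed the 1Rb H3.3 libraries.

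Single regions named on X and Y were Dmrtc1c1 with Dmrtc1c2 (0.47, input 0.61) and 2 gene-free windows of X (0.65 and 0.51, inputs 0.75 and 0.53), all higher, and Gm1993 (−0.84, input −0.61), Fthl17f (−0.50, input −0.31) and the protocadherin gene Pcdh11x (−0.50, input −0.40), all lower. On Y the 1 higher window, at 4000001 to 4050000, differed by 0.20 (input 0.19), and Gm21282 was lower (−0.26 ± 0.06, adjusted p = 0.0036) with an input ratio of 0.21 in the opposite direction. Of all X windows 16.4% were lower. X multicopy genes had 12 of 45 windows lower (26.7%), 4 of them with inputs within 1.2-fold. X single-copy genes had 7 of 127 lower (5.51%), all with inputs within 1.2-fold. Dmd, the dystrophin gene, led these: its window with the smallest p held 14.4, 12.8 and 13.6 CPM against 15.7, 16.6 and 17.9 (−0.28 ± 0.06, adjusted p = 0.0018, input −0.10).

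Y took 3.01, 2.89 and 3.04% of H3.3 counts in 1Rb and 3.20, 3.34 and 3.41% in Cg, against 1.70 and 1.74% of the inputs. The groups did not overlap, and the log2 difference of −0.16 ± 0.05 missed the threshold (edgeR adjusted p = 0.0589, 0.0095 with DESeq2). With single libraries left out the edgeR adjusted p of the Y sum ran from 0.0411 to 0.333. 328 of 1790 windows were lower and 1 was higher, and in 89 of 91 bins all 1Rb libraries were below all Cg libraries. The median was −0.11 in the first 3.5 Mb, which hold most single-copy genes of the short arm, and −0.15 beyond. The list of short arm genes had 2 of 21 windows lower (9.52%) and that of long arm genes 2 of 7 (28.6%), against 18.3% of all Y windows. Named windows fell at the short arm genes Zfy2, a zinc finger gene (−0.22, adjusted p = 0.022, input 0.04), and Usp9y, a deubiquitinase gene (−0.21, input 0.11). On the long arm they fell at Ssty1 (−0.19, input 0.09) and Sly (−0.21, input −0.17), multicopy genes expressed in spermatids. Lower windows of Y ran from 43 to 1030 when single libraries were left out, highest without Cg_1. Without both 1Rb_1 and Cg_1, 4029 windows of the genome were lower, 1615 of them autosomal. With all libraries 1392 were lower, 521 of them autosomal. In both fits the rest lay on X and Y. In 3Rb, on the shared Cg libraries, X differed by −0.12 and Y by −0.52.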

How the data were processed

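Chromatin of whole testis was sonicated and immunoprecipitated, per the labels' protocols. The authors deposited counts per 50 kb window of mm10, 54520 windows in each library. CASAVA 1.8 and BWA are the tools named there, per the submitters' processing notes. Their settings and the handling of duplicates are not given in the sources used here. Windows with a mean of at least 10 counts over the 9 H3.3 libraries (53117, with 3Rb in the fit to estimate the spread) were tested with edgeR 4.0.16 (R 4.3.3, TMM, quasi-likelihood, Benjamini-Hochberg over all windows). Sums per chromosome (21) and per distance band (95) were tested in the same way with the window scaling. Every adjusted p is from edgeR unless DESeq2 1.42.0 is named. Exact permutation tests used scipy 1.17.1. CPM, log2 differences and SE were computed here from the counts. The fits were tested on simulated data. All simulated libraries shared 1 profile, without library-wide deviations such as those of 1Rb_1 and Cg_1. The simulation therefore cannot show how such deviations affect the calls.

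Input ratios were scaled to autosomal totals and have exact binomial 95% intervals, which cover counting error only. There is 1 library of each input, so the ratios carry no replicate error. By its labels the 1Rb_M input differs in cross and age from the 1Rb H3.3 libraries. It is thus not an input of that group, and what this does to the ratios was not tested. Windows overlap genes of the GRCm38.p6 RefSeq table (21887 protein-coding), without regard to strand. Windows with pooled input over 5 or under 0.2 times the median (1503) were left out of the naming rule. By that rule called windows next to each other or 1 apart were merged, and regions with separate groups were ranked by adjusted p: 12 autosomal per direction, at most 3 per chromosome and with genes first, and 4 per direction on X and Y. Besides these, all members of the H3.3 pathway list and up to 4 members of each of the other 16 lists were named. One member chosen by this rule is not reported here. Members, lists and tests were chosen with earlier results of these data known. Alternatives were DESeq2, library totals, TMM outside 8, 12, X and Y, other count filters, the 6 libraries alone, a replicate block, windows left out by input, inputs as offset, and single libraries left out. Leaving out 1Rb_1 and Cg_1 together was chosen after seeing the data.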

Additional observations from a re-analysis of the deposited data

How the results depend on the processing

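Counts of windows called higher and lower in 1Rb (576 and 1392) moved most with the libraries used. Leaving out single replicates gave 463 to 1106 higher and 716 to 2884 lower windows, 0 to 7 chromosomes (1 with all libraries) and 1 to 5 bands (2 with all libraries), with the highest values without Cg replicate 1. Without both 1Rb_1 and Cg_1, chosen after seeing the data, 3855 windows were higher and 4029 lower, and 17 chromosomes and 40 bands passed. Windows whose inputs differed held many calls, and without them 218 were higher and 658 lower, with 0 chromosomes and 1 band. With the inputs as an offset, in a fit of the 6 libraries alone, the counts were 1176, 3114, 0 and 1; the cause was not tested. DESeq2 called 6 chromosomes and the 6 libraries alone called 2, with 1 band. Library totals, TMM from windows outside 8, 12, X and Y, and leaving out windows of unusual input called 0 chromosomes. Same-numbered libraries of the groups did not deviate together (correlations −0.565, −0.262 and −0.122), and a fit with the replicate block called 483 higher and 1005 lower windows, 0 chromosomes and 1 band.

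The 3 to 13 Mb band of 8 was called under each of the 17 alternatives, at 0.13 to 0.17. Its higher windows ran from 78 to 96, and those of the same band of 12 from 42 to 73. The contrast of 8 and 12 with the other 17 autosomes was 0.0926 to 0.149 when single replicates were left out and 0.18 without 1Rb_1 and Cg_1. Under the input offset alone, chromosome 7 (−0.011), the last 5 Mb of 12 (−0.041), the 3 to 13 Mb band of 7 (−0.0054) and 19 of the 70 named windows changed sign. These windows were at Naip1 (−0.10), Alyref2 with Itln1 (−0.36), Esp34 (−0.13), Btbd9 with Glo1 (−0.0038), 4930449I24Rik (−0.14), Aida with Brox (−0.049), Dmrtc1c1 (−0.14), X at 3250001 (−0.10) and 33200001 (−0.025), Nlrp1b (0.039), Skint3 (0.21), Gm9595 (0.082), Gm6468 (0.013), Sirpb1c (0.019), Snrpn at 60450001 (−0.12), Olfr412 (−0.13), Olfr1228 (0.071), Zfp433 (0.14) and Zfp640 (−0.076).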
